A study of Ovis aries with 9 samples.

Results

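The insulin-like growth factor (IGF) system of the sheep ovary was examined in whole ovaries from 9 ewes, with 1 RNA-Seq library per ewe. It was taken as 10 genes chosen by their role, the ligands IGF1 and IGF2, the receptors IGF1R and IGF2R, the binding proteins IGFBP2, IGFBP3, IGFBP4, IGFBP5 and IGFBP6, and PAPPA, a protease that cuts binding proteins. Of these, 8 genes were matched to rows of the count table, which holds 27174 rows. The groups were 3 Dorset ewes labelled as wild type (libraries D4, D5, D6), 3 ewes of the Small Tail Han breed with the genotype FecBBFecBB (Han BB, libraries W1, W2, W4) and 3 of that breed with the genotype FecB+FecB+ (Han ++, libraries W6, W7, W8). FecB is a mutation of the BMPR1B gene that is known for its effect on ovulation rate. All ewes were adult, had estrus synchronized with a progestogen sponge and pregnant mare serum gonadotropin, and were killed soon after a later spontaneous estrus, so the controls share this treatment with the Han groups. Han BB and Dorset differ in both breed and FecB genotype, which cannot be told apart in that comparison, while Han ++ and Dorset differ in breed. An ovary is a mixture of follicles, luteal tissue, stroma and vessels, so that fewer cells of a type and less RNA per cell cannot be told apart.

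IGF1 and IGF2 are small secreted proteins that bind the type 1 IGF receptor, IGF1R, a tyrosine kinase that signals through insulin receptor substrates, PI3 kinase and AKT. IGF2R binds IGF2 and carries it to the lysosome without such a signal. In follicles, IGFs act together with the gonadotropins on the growth of granulosa and theca cells and on steroid synthesis. The IGFBPs hold most of the ligand outside cells, and PAPPA cleaves IGFBP4 and IGFBP5 and so frees IGF. PAPPA is itself held in check by the stanniocalcins STC1 and STC2.

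IGF1, IGF2 and IGFBP5 were listed on 2 rows, a plain symbol and the same symbol with a dot and the digit 1 as a suffix. The suffixed row held most of the reads for IGF1 and IGFBP5, and the plain row did for IGF2. The IGF1.1 row summed to 12414 reads over the 9 libraries, the IGF2 row to 8261 and the IGFBP5.1 row to 98953. The smaller row took 1.11 to 6.28% of the reads of IGF1 in a library, 0 to 3.39% of those of IGF2 and 1.53 to 7.74% of those of IGFBP5. The same was seen across the table, where the larger row held over 90% of the reads for 98.65% of the 1037 symbols with 2 rows and at least 1000 reads. The sources used here do not say what separates such rows, and each gene is given below by the row with more reads. PAPPA was read from the row PAPP-A, which the study describes as pregnancy-associated plasma protein A. IGF2R was not analysed here. A row named IGFR1 was not paired with IGF1R by any table used here, so its values are given under its own name and it was not counted as a member.

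Total counts ranged from 10803913 to 20992535 reads per library. After normalization, W4 of Han BB resembled D6 of Dorset (Spearman's rho over genes 0.978, genes not being replicates) more than any ewe of its own group (rho at most 0.931), and D6 likewise (at most 0.949). D4, D5 and W1 too had their closest library in another group (rho 0.956, 0.962 and 0.978, against 0.933, 0.949 and 0.971 within the group), so this alone does not single out W4 and D6. These 2 lay together at one end of the first principal component (42.4% of the variance, scores 99.0 and 88.1), with D4 at the other end (-99.95), and results are also given without W4 and D6. Of the ovarian markers, 8 of 10 granulosa genes and 7 of 8 luteal genes had a row, and all of these had enough reads to be tested. The summed luteal markers lay between 357 and 1885 CPM (counts scaled to an equal library size with TMM factors) in the Dorset libraries, between 481 and 1798 CPM in Han BB and between 891 and 1559 CPM in Han ++. The summed granulosa markers lay between 1105 and 1226 CPM in the Dorset libraries. They lay between 680 and 1172 CPM in Han BB and between 733 and 1196 CPM in Han ++. Of the Han libraries, only W2 and W8 reached the Dorset range. OVGP1 and PAX8, markers of the secretory cells of the oviduct, summed to between 377 and 720 CPM in the Dorset libraries and between 771 and 1838 CPM in the Han libraries. Nearly all of this was OVGP1, with 371 to 1824 CPM. PAX8 did not separate the breeds, with 18.0 CPM in D4 as its highest value and 3.14 to 14.0 CPM in the Han libraries. The ciliated cells of the oviduct were read from 4 marker genes with a row, of 6 listed. These summed to 40.8 to 144 CPM in Dorset and overlapped both Han groups. Han BB had 58.6 to 398 CPM and Han ++ 98.6 to 209 CPM. The part of oviduct tissue in the differences from Dorset was not tested.

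**Figure D1:**
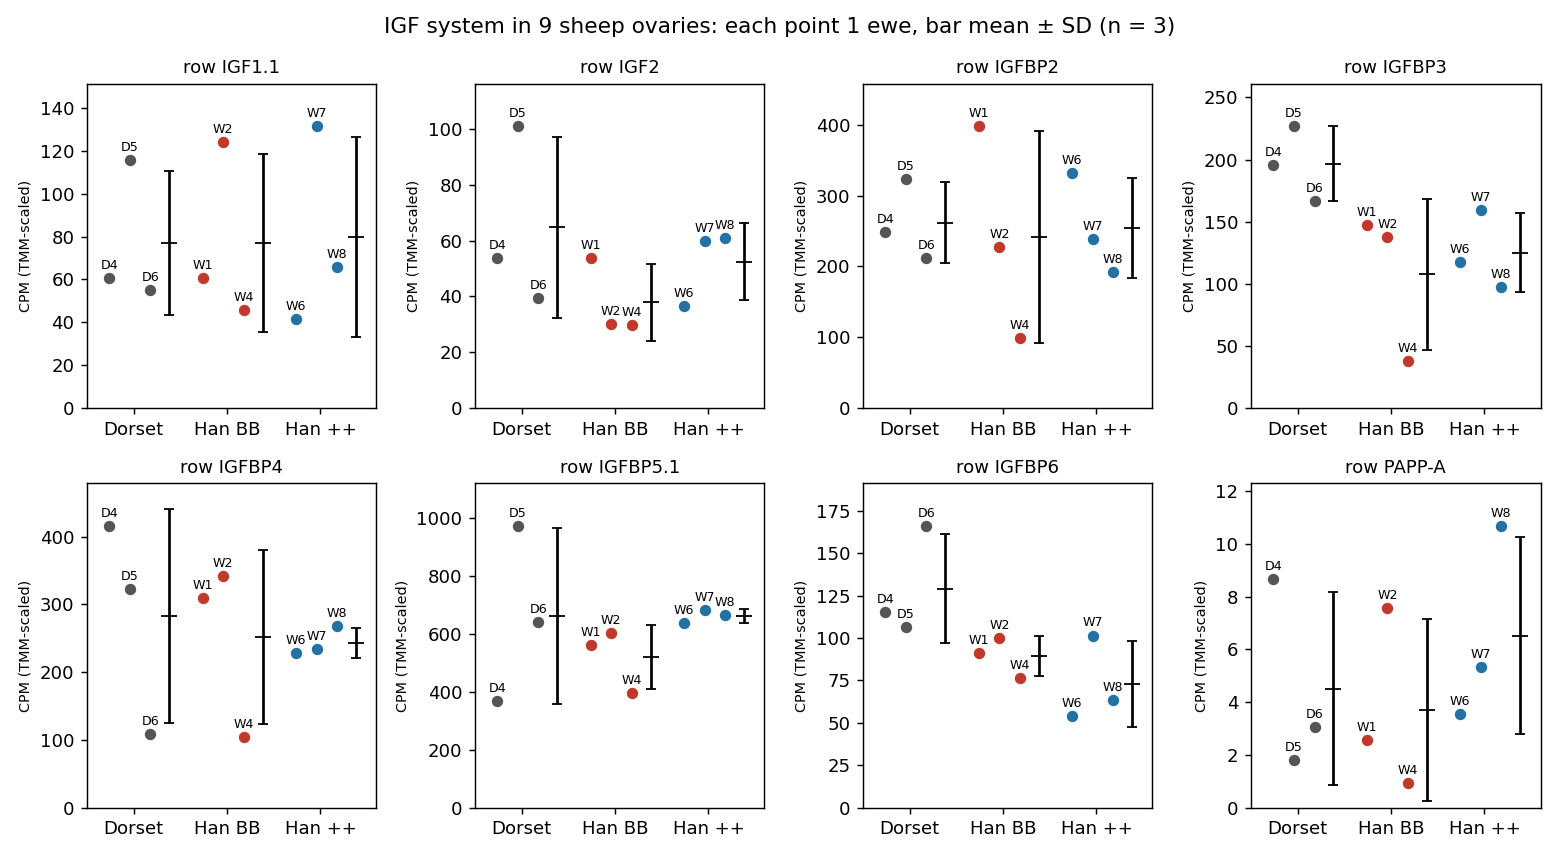
Normalized counts (CPM, y axis from 0) of the 8 IGF system genes, 1 panel per gene and 1 point per ewe in the Dorset, Han BB and Han ++ groups, with the mean and SD of 3 ewes as a bar. IGFBP3 and IGFBP6 are the panels in which every Dorset point lies above every Han point, and the Han BB library W4 has the lowest point for IGF2, IGFBP2, IGFBP3, IGFBP4 and PAPP-A.

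None of the 8 genes passed the thresholds of an adjusted p under 0.05 and a change of more than 1.5-fold in any of the 3 comparisons. In Han BB against Dorset 0 of the 8 were called, against 0% of the 16871 genes tested. Likewise 0 of the 8 were called in Han ++ against Dorset, against 0.00593% of all genes, and 0 of the 8 in Han BB against Han ++, against 0%. At an unadjusted p under 0.05 there were 0, 1 and 0 of the 8 genes in these comparisons, and 4.99%, 5.27% and 1.97% of all genes. Groups that did not overlap were found for 2, 2 and 1 of the 8 genes, while 8.79%, 11.1% and 9.38% of all genes did so. The single gene under 0.05 was IGFBP6, lower in Han ++ than in Dorset. The median log2 fold change of the 8 genes was -0.31 in Han BB against Dorset, -0.13 in Han ++ against Dorset and -0.14 in Han BB against Han ++, beside medians over all genes of -0.0058, -0.06 and 0.04. Both comparisons with Dorset use the same 3 Dorset libraries. The 95% intervals of the fold changes were wide and reached 3.96-fold, 4.73-fold and 5.74-fold at their farthest in the 3 comparisons, each time for PAPPA, and the intervals of the other 7 genes were narrower.

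**Figure D2:**
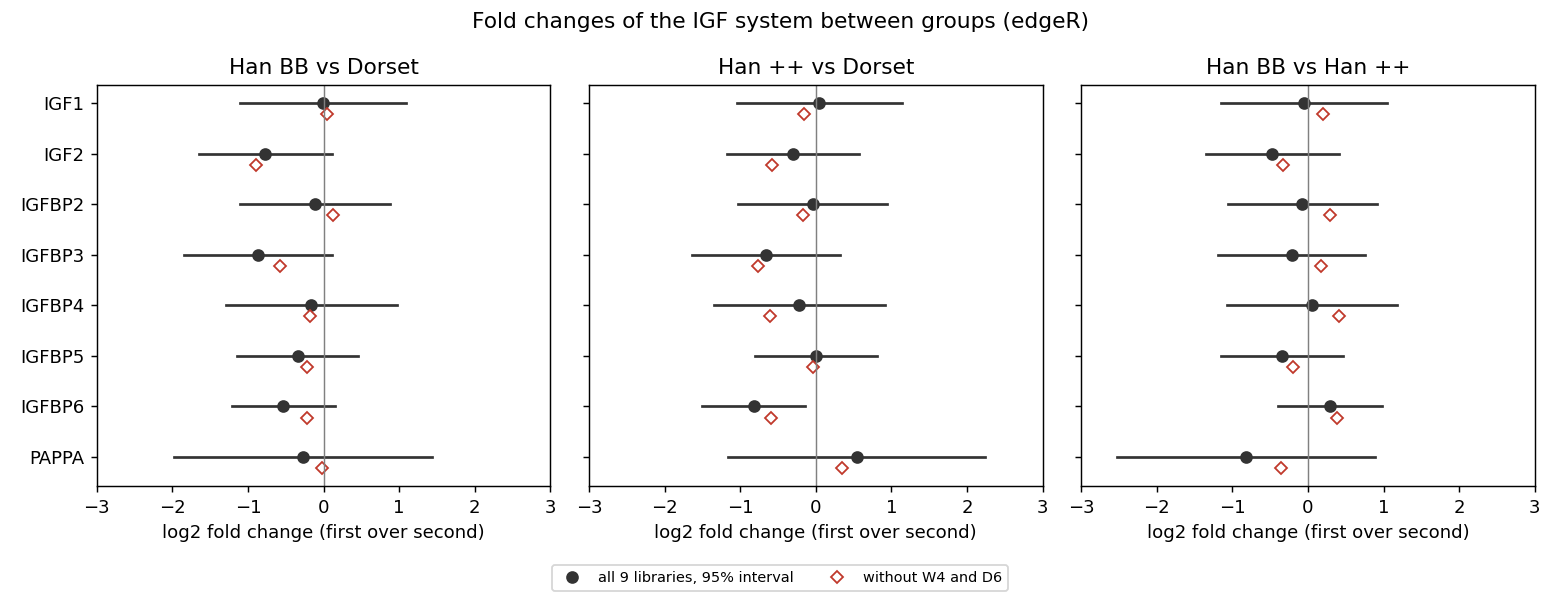
Log2 fold changes (x axis) of the 8 genes in Han BB against Dorset, Han ++ against Dorset and Han BB against Han ++, with 95% intervals from edgeR as lines and the value without W4 and D6 as an open diamond. The interval of IGFBP6 in Han ++ against Dorset, from -1.51 to -0.14, is the only one that does not reach 0.

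IGF1, the ligand best known as the mediator of growth hormone action, varied more between ewes of a group than between groups. The IGF1.1 row had 60.8 CPM in D4, 116 CPM in D5 and 55.0 CPM in D6. In Han BB it had 60.8 CPM in W1, 124 CPM in W2 and 46.0 CPM in W4, and in Han ++ 41.4 CPM in W6, 132 CPM in W7 and 66.0 CPM in W8. D5, W2 and W7 thus stood above the other 2 ewes of their groups, and the 3 groups overlapped. Dorset averaged 77.2 ± 33.6 CPM, Han BB 77.0 ± 41.5 CPM and Han ++ 79.7 ± 46.7 CPM (SD, n = 3 ewes). The 95% interval of the log2 fold change ran from -1.10 to 1.09 in Han BB against Dorset and from -1.05 to 1.14 in Han ++ against Dorset. The smaller IGF1 row, with 11 to 55 reads per library, gave log2 fold changes against Dorset of 0.83 for Han BB and 1.07 for Han ++ (standard error 0.75 each), and neither passed (adjusted p = 0.996 and 1.00 in the quasi-likelihood test of edgeR, adjusted by Benjamini-Hochberg).

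IGF2, the ligand known from fetal growth and from theca cells of ruminant follicles, had its highest level in a Dorset ewe and its lowest levels in Han BB. Its row had 53.6 CPM in D4, 101 CPM in D5 and 39.4 CPM in D6, against 54.0 CPM in W1, 30.0 CPM in W2 and 29.6 CPM in W4. In Han ++ it had 36.6 CPM in W6, 59.8 CPM in W7 and 61.0 CPM in W8. The Han BB ewes W2 and W4 lay below every Dorset ewe, but W1 did not. Han BB differed from Dorset by -0.77 on the log2 scale (standard error 0.40, unadjusted p = 0.0788, adjusted p = 0.977 in edgeR), and it was -0.90 (standard error 0.41) without W4 and D6. Without D5 it was -0.29 (standard error 0.37, unadjusted p = 0.455), and the range with 1 library left out was -1.13 to -0.29. Between Han ++ and Dorset it was -0.31 (standard error 0.40).

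IGF2 took 45.0 ± 2.88% of the summed IGF1 and IGF2 reads in Dorset, 35.1 ± 14.1% in Han BB and 41.4 ± 8.78% in Han ++ (SD, n = 3 ewes). This share depends on transcript length and was compared between libraries only. In 6 of the 9 libraries it lay between 41.7 and 47.0%. It was lower in W2, at 19.5%, in W7, at 31.2%, and in W4, at 38.7%. W2 and W7 were also the libraries with the highest IGF1. The difference between Han BB and Dorset was -9.96 percentage points (exact two-sided permutation test, p = 0.4, where 3 against 3 ewes cannot go below 0.1). It was -2.19 points without W2 and -15.9 points without W1.

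The row IGFR1 had levels that overlapped between the groups. It had 101 to 176 CPM in Dorset (median D6, 106 CPM), 108 to 155 CPM in Han BB and 137 to 168 CPM in Han ++. Its log2 fold change was -0.00062 (95% interval -0.65 to 0.65) in Han BB against Dorset and 0.25 (95% interval -0.40 to 0.90) in Han ++ against Dorset. The intervals reached at most 1.57-fold in the first comparison and 1.87-fold in the second.

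IGFBP3, the main carrier of IGFs in blood, was lower in each Han ewe than in each Dorset ewe. Its row had 196 CPM in D4, 227 CPM in D5 and 167 CPM in D6. In Han BB it had 147 CPM in W1, 138 CPM in W2 and 37.8 CPM in W4, and in Han ++ 118 CPM in W6, 160 CPM in W7 and 97.3 CPM in W8. The gap between the lowest Dorset value (D6) and the highest Han value (W7) was small beside the spread within groups. The log2 fold change was -0.87 (standard error 0.45, unadjusted p = 0.0771, adjusted p = 0.977) in Han BB and -0.65 (standard error 0.44, unadjusted p = 0.170, adjusted p = 1.00) in Han ++ over the same Dorset ewes, so neither passed in edgeR. Without W4 and D6 the values were -0.58 (unadjusted p = 0.0890, adjusted p = 0.701) and -0.76 (unadjusted p = 0.0207, adjusted p = 0.449). Leaving out 1 library at a time gave -1.18 to -0.48 for Han BB and -0.88 to -0.47 for Han ++.

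IGFBP6, which binds IGF2 with a preference over IGF1, was also higher in each Dorset ewe than in each Han ewe. Its row had 115 CPM in D4, 106 CPM in D5 and 166 CPM in D6, against 91.4 CPM in W1, 100.2 CPM in W2 and 76.6 CPM in W4. In Han ++ it had 53.8 CPM in W6, 102 CPM in W7 and 63.6 CPM in W8. W2 and W7 came close to the lowest Dorset ewe, D5, and D6 stood above the other 8 libraries. Dorset averaged 129 ± 32.4 CPM, Han BB 89.4 ± 11.9 CPM and Han ++ 73.0 ± 25.2 CPM (SD, n = 3 ewes). Han ++ differed from Dorset by -0.82 on the log2 scale (standard error 0.31, 95% interval -1.51 to -0.14, unadjusted p = 0.0231), which did not pass after adjustment over all genes (adjusted p = 0.881 in edgeR). Without W4 and D6 this was -0.60 (standard error 0.29, unadjusted p = 0.0670, adjusted p = 0.623). Han BB differed from Dorset by -0.53 (standard error 0.31, adjusted p = 0.985), and -0.21 without these libraries.

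IGFBP4, an inhibitor of IGF action and the classical substrate of PAPPA in follicular fluid, was set apart by 2 libraries and not by the groups. D6 had 108 CPM and W4 105 CPM, while the other 7 libraries had 228 to 416 CPM. The Dorset mean of 283 ± 158 CPM, the Han BB mean of 252 ± 129 CPM and the Han ++ mean of 243 ± 21.7 CPM (SD, n = 3 ewes) differed by less than the spread within Dorset. With all libraries Han ++ differed from Dorset by -0.22 on the log2 scale (standard error 0.51, unadjusted p = 0.681). Without W4 and D6 it was -0.60 (standard error 0.25, unadjusted p = 0.0387, adjusted p = 0.520), and the 3 Han ++ values, at most 268 CPM, lay below those of D4 (416 CPM) and D5 (323 CPM). Leaving out only D4, with W4 and D6 kept, gave 0.17, so the direction with all libraries rested on that ewe. The 5 stromal markers DCN, LUM, PDGFRA, COL1A1 and TCF21 summed to 4446 CPM in D6 and 4918 CPM in W4, against 7453 to 9117 CPM in the other 7 libraries. Of these, only DCN and COL1A1 were lowest in both D6 and W4. PDGFRA was highest in them, LUM in D6 (933 CPM) was above D5, W1 and W7, and TCF21 in D6 (102 CPM) was above all Han libraries. The part of stromal content in the level of IGFBP4 was not tested.

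IGFBP2, a binding protein known from granulosa cells of small follicles, ranged from 99.5 CPM in W4 to 399 CPM in W1, both in Han BB. The 3 Dorset ewes had 212 to 324 CPM and the 3 Han ++ ewes 193 to 331 CPM, so that both groups lay inside the range of Han BB. Its log2 fold change was -0.11 (95% interval -1.10 to 0.88) in Han BB against Dorset and -0.04 (95% interval -1.03 to 0.95) in Han ++ against Dorset. IGFBP5, the second binding protein that PAPPA cleaves and a known product of atretic follicles, had 368 CPM in D4, 975 CPM in D5 and 641 CPM in D6. It had 562 CPM in W1, 605 CPM in W2 and 396 CPM in W4. The 3 Han ++ libraries lay close together, at 637 CPM in W6, 683 CPM in W7 and 666 CPM in W8, above each Han BB ewe and inside the Dorset range. Between Han BB and Han ++ the log2 fold change was -0.35 (standard error 0.37, adjusted p = 0.999 in edgeR). The smaller IGFBP5 row had 6.69 to 47.1 CPM in Han BB and 28.2 to 38.0 CPM in Han ++, so there these groups overlapped. Its log2 fold change between them was -0.11 (standard error 0.66).

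The rows of the 5 binding proteins together held 1305 to 2009 CPM in the 8 libraries other than W4, which had 721 CPM. IGFBP5 took the largest share of their reads in 8 libraries and IGFBP4 in D4, with 30.4% against 28.7% for IGFBP5. Shares were compared between libraries only, since a longer transcript gives more reads. IGFBP3 took 12.8 ± 1.502% in Dorset, 8.06 ± 2.44% in Han BB and 8.93 ± 1.88% in Han ++ (SD, n = 3 ewes). The lowest Dorset share of IGFBP3, 11.3% in D5, was just above the highest Han share, 11.03% in W7. Its difference from Dorset was -4.73 percentage points in Han BB and -3.87 points in Han ++, each with the smallest p that 3 against 3 ewes allow (exact two-sided permutation test, p = 0.1, and 0.9 after Benjamini-Hochberg adjustment over 18 comparisons of shares). Without W4 and D6 these differences were -3.33 and -3.87 points. IGFBP6 took 8.81 ± 3.74% in Dorset and 5.22 ± 1.62% in Han ++, and these groups overlapped. With all 9 libraries, the shares of IGFBP2, IGFBP4 and IGFBP5 differed between groups by at most 6.78 points, with p of 0.5 or more in the exact permutation test. Without W4 and D6, the IGFBP5 share differed by 10.1 points in Han ++ against Dorset, where Dorset had 28.7% in D4 and 51.2% in D5. In Han BB against Han ++ it then differed by -8.33 points. The 2 Han BB ewes left had 39.1 and 44.3%, below the 48.0 to 52.8% of Han ++.

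**Figure D3:**
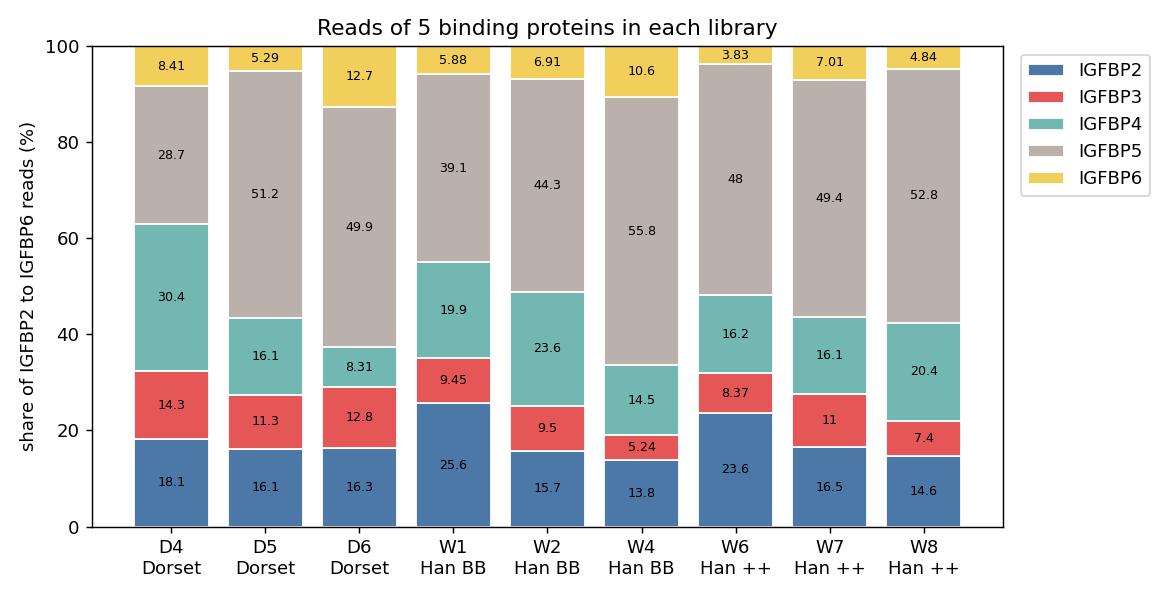
Share of the reads of IGFBP2, IGFBP3, IGFBP4, IGFBP5 and IGFBP6 (y axis, percent of their sum, both rows of IGFBP5 included) in each of the 9 libraries, with the value written in each segment. The IGFBP3 segment is 11.3 to 14.3% in the Dorset libraries and 5.24 to 11.03% in the Han libraries.

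PAPPA was the member that varied most between ewes. The PAPP-A row had few reads, from 14 to 118 per library, and its level ranged from 0.936 CPM in W4 to 10.7 CPM in W8, an 11.4-fold range. The SD of its log2 CPM over the 9 libraries, 1.102, was larger than that of 86.3% of all tested genes, and that of the other 7 members was between 0.42 and 0.76. Each group held both high and low ewes. Dorset had 8.66 CPM in D4, 1.80 CPM in D5 and 3.07 CPM in D6. Han BB had 2.56 CPM in W1, 7.57 CPM in W2 and 0.936 CPM in W4, and Han ++ had 3.53 CPM in W6, 5.34 CPM in W7 and 10.7 CPM in W8. The log2 fold changes were -0.28 (standard error 0.78) in Han BB against Dorset, 0.54 (standard error 0.77) in Han ++ against Dorset and -0.82 (standard error 0.77) in Han BB against Han ++, with adjusted p of 0.997, 1.00 and 0.999 in edgeR. Without D4 the first of these turned to 0.59, and without W4 to 0.18. With 1 library left out the second ran from 0.053 (without W8) to 1.402 (without D4), and the third from -1.86 (without W2) to -0.29 (without W8).

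The 5 libraries with the most PAPP-A were W8, D4, W2, W7 and W6, and the same 5 were highest for 3 of the 7 luteal markers measured, OXT, CYP11A1 and PTGFR, and not for the other 4, a comparison chosen after the values were seen. OXT, the oxytocin gene that ruminant luteal cells express, had 716 CPM in W8, 782 CPM in D4, 721 CPM in W2, 566 CPM in W7 and 267 CPM in W6, and 1.89 to 192 CPM elsewhere. CYP11A1, the enzyme that opens steroid synthesis from cholesterol, had 162 to 493 CPM in these libraries and 73.6 to 143 CPM elsewhere. STAR, HSD3B1, SCARB1 and FDX1, which serve cholesterol uptake and steroid synthesis, did not have these 5 libraries highest. STAR had 47.4 CPM in W8 and 167 CPM in W4, HSD3B1 22.7 CPM in W8 and 31.6 CPM in W1, and SCARB1 34.8 CPM in W6 and 79.9 CPM in D5. FDX1 was highest in W4, at 106 CPM, the library with the least PAPP-A. The sum of the 7 markers, 891 to 1885 CPM in these 5 libraries and 357 to 673 CPM in the others, therefore does not stand for all of them. CYP11A1 was also among the 5 tested genes whose level was most like that of PAPP-A, with a root mean square difference of 0.37 in centred log2 CPM over the 9 libraries, after FADS3 (0.31), PODXL (0.36) and LOC101121856 (0.37), and before FJX1 (0.38). The 4 theca markers with a row also summed highest in W8, D4, W2 and W7, at 115 to 186 CPM. In W6 they summed to 51.0 CPM, below D5, at 95.8 CPM. Among them CYP17A1 was highest in W8, D4, W2 and W7, and INSL3, LHCGR and NR5A1 were not. The granulosa markers with a row did not have the same 5 libraries highest. They summed to 1196 CPM in W8, 1172 CPM in W2 and 1150 CPM in D4. In D6 and D5 they summed to 1226 and 1105 CPM, above W7 (948 CPM) and W6 (733 CPM). The part of granulosa, luteal or theca tissue in the level of PAPP-A was not tested.

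**Figure D4:**
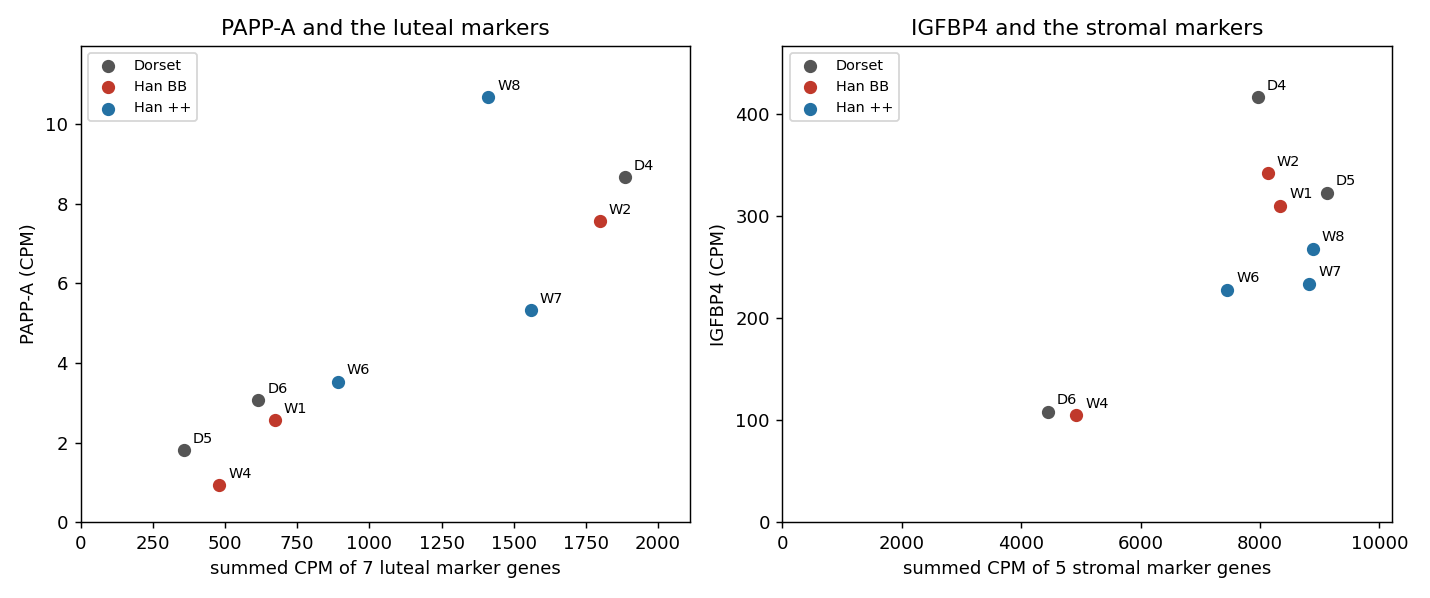
Left, PAPP-A (CPM, y axis) against the summed CPM of 7 luteal markers (x axis) and right, IGFBP4 (CPM) against the summed CPM of 5 stromal markers, 1 point per ewe, coloured by group. W8, D4, W2, W7 and W6 are the highest 5 points on both axes at the left, though only 3 of the 7 markers have these 5 libraries highest. D6 and W4 stand apart at the lower left of the right panel, a pairing chosen after the values were seen.

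By the same measure, the gene most like IGFBP3 over the 9 libraries was SURF2, with a difference of 0.22, followed by RADIL (0.23), TTC9 (0.24), ANKRD13D (0.24) and SYT15 (0.27). For IGFBP4 it was RPS28, a protein of the small ribosomal subunit, with a difference of 0.12, followed by TRIP6 (0.14), G6PC3 (0.15), ZNF70 (0.16) and HRAS (0.16). RPS28 had 55.5 CPM in D6 and 59.7 CPM in W4, and 102 to 213 CPM in the other 7 libraries, so that it was set apart by the same libraries as IGFBP4.

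The wider pathway was read from a list of 37 genes, of which 34 had enough reads to be tested. edgeR called 0 of the 34 in each of the 3 comparisons, and 1, 0 and 0 had an unadjusted p under 0.05 in Han BB against Dorset, Han ++ against Dorset and Han BB against Han ++, beside 4.99%, 5.27% and 1.97% of all genes. In the first 14 of the 34 were higher and 20 lower (median log2 fold change -0.09), in the second 17 and 17 (median 0.0062) and in the third 16 and 18 (median -0.04). Non-overlap of the groups was found for 2, 0 and 2 of the 34 in these comparisons, beside 8.79%, 11.1% and 9.38% of all genes.

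The gene with an unadjusted p under 0.05 was IGF2BP3, a protein that binds IGF2 mRNA and is known from germ cells, embryos and tumours. It had 3.70 CPM in D4, 3.38 CPM in D5 and 5.25 CPM in D6, against 1.14 CPM in W1, 0.841 CPM in W2 and 2.74 CPM in W4, so the groups did not overlap. The log2 fold change was -1.38 (standard error 0.59, unadjusted p = 0.0385, adjusted p = 0.9751 in edgeR), on 12 to 94 reads per library. In Han ++ it had 4.15 CPM in W6, 1.58 CPM in W7 and 2.03 CPM in W8. IGF2BP2, of the same family, had log2 fold changes of -0.52 and -0.46 over Dorset in Han BB and Han ++ (standard error 0.44 each), and IGF2BP1, with 0 to 9 reads, was too low to be tested.

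Of the regulators of the protease, STC1 was high in the Dorset ewe D4, at 56.3 CPM, and had 10.2 to 30.8 CPM in the other 8 libraries. Han BB differed from Dorset by -0.46 on the log2 scale (standard error 0.58) and Han ++ by -0.87 (standard error 0.59). STC2 lay between 0.447 and 1.36 CPM in Dorset, 0.468 and 5.04 CPM in Han BB, and 1.097 and 2.12 CPM in Han ++, on 7 to 72 reads. PAPPA2, a protease related to PAPPA, ranged from 1.117 to 3.11 CPM among Dorset ewes, from 0.3797 to 1.26 CPM among Han BB ewes and from 1.145 to 4.70 CPM among Han ++ ewes, and its log2 fold change of Han BB over Han ++ was -1.47 (standard error 0.79). Neither STC2 nor PAPPA2 passed in any comparison.

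Among the other binding proteins, IGFBP7 binds IGFs weakly and is known from vessels and stroma. It had 264 CPM in D6 and 367 CPM in W4, the lowest of the 9 libraries, and 559 to 1680 CPM in the others, so it was set apart like IGFBP4. IGFBP1, read from its row IGFBP1.1, had 0.401 to 6.58 CPM. IGFALS, which holds IGFs and IGFBP3 in a complex in blood, had group means of 3.103, 3.54 and 3.47 CPM in Dorset, Han BB and Han ++. IGFBPL1 was too low to be tested, with 0 to 11 reads.

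Of the related receptors, INSR, the insulin receptor, had group means of 161, 172 and 186 CPM in Dorset, Han BB and Han ++, with log2 fold changes over Dorset of 0.10 and 0.21 (standard error 0.28 each). GHR, the growth hormone receptor, had means of 30.0, 38.7 and 35.7 CPM, with log2 fold changes of 0.37 and 0.25 (standard error 0.28 each). INSRR had 3 to 70 reads per library and a log2 fold change of -1.02 (standard error 0.86) in Han BB against Dorset.

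Behind the receptor, 21 of 22 signalling genes were tested, and 0 had an unadjusted p under 0.05 in any of the 3 comparisons. The median log2 fold changes of these genes were -0.08, -0.05 and -0.02. The groups did not overlap for 1, 0 and 2 of the 21, beside 8.79%, 11.1% and 9.38% of all genes. AKT1, a kinase that PI3 kinase activates, had a log2 fold change of -0.54 in Han BB against Dorset (standard error 0.46). AKT1 was lowest in W4, at 14.8 CPM, and D6, at 25.7 CPM. The other libraries ranged from 38.0 CPM in W8 to 76.7 CPM in D4. Other signalling genes stood apart in W4 and D6 too, in both directions. AKT2 was lowest in them, at 15.1 and 21.3 CPM. SOS1, at 176 and 141 CPM, and RPS6KB1, at 92.7 and 83.2 CPM, were highest in them. PIK3CB, a catalytic subunit of PI3 kinase, had 0.53 in Han ++ against Dorset (standard error 0.35). IRS1, the insulin receptor substrate, had 43.0 to 50.0 CPM in the Han BB ewes, 50.9 to 75.3 CPM in Dorset and 61.6 to 70.0 CPM in Han ++, so Han BB overlapped neither group. It was named after its values were seen, and its log2 fold changes were -0.43 against Dorset (standard error 0.24, unadjusted p = 0.0993, adjusted p = 0.980) and -0.50 against Han ++ (standard error 0.24, unadjusted p = 0.0634, adjusted p = 0.999 in edgeR). FOXO1 also did not overlap between the Han groups, with 83.6 to 146 CPM in Han BB and 150 to 162 CPM in Han ++.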

How the data were processed

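RNA from the ovaries of 9 ewes was sequenced, and per the labels the authors aligned reads with TopHat to the sheep genome Oar_v3.1. The authors deposited raw counts per gene, and for the counting program and its strand setting the sources used here give nothing, and overlapping genes could share reads. Groups were taken from the genotype and breed labels, and columns were matched to samples by title. Counts were normalized by TMM, and 16871 of 27174 rows passed filterByExpr. edgeR 4.0.16 (R 4.3.3) fitted quasi-likelihood models with group as the only term over all 9 libraries, and p-values were adjusted by Benjamini-Hochberg over all tested rows. Calls needed an adjusted p under 0.05 and a change of more than 1.5-fold. Standard errors and 95% intervals came from the F statistics, and CPM used TMM-scaled library sizes. With 3 ewes per group, p-values cover the spread between ewes. IGF1R and IGF2R had no row under these symbols and were not analysed here. The members and lists were chosen with earlier results of these data known. Named genes of the wider pathway were the 3 of each list with the largest absolute log2 fold change, plus genes with an unadjusted p under 0.05, and a gene that this rule names is not reported here. Likeness was the root mean square difference of centred log2 CPM (prior count 2) over 9 libraries, given for the 3 members that varied most. Alternatives used DESeq2 1.42.0, limma 3.58.1, other filters and scalings, fewer libraries, and summed rows of a symbol. Scripts were tested on simulated data.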

Additional observations from a re-analysis of the deposited data

How the results depend on the processing

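None of the 8 genes was called under any of the alternatives, whether by tool, filter, scaling or libraries left out. Over all genes, Han BB against Dorset gave 38 calls with DESeq2, 2 with no filter on low counts and 2 without W4 and D6, against 0 in edgeR, and 0 to 1 with 1 library left out (1 without W4). Han ++ against Dorset gave 65 calls with DESeq2, 0 with limma, 11 with no filter, 0 when only the 2 groups were fitted and 22 without W4 and D6, against 1 in edgeR, and 0 to 5 with 1 library left out (5 without W4). Han BB against Han ++ gave 2 with DESeq2 and 2 with limma, against 0. The alternative that summed rows was chosen after seeing the data, and W4 and D6 were known from earlier results to stand apart.

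Some log2 fold changes, which lay between -0.28 and 0.046 in edgeR with all libraries, changed direction, and the cause was not tested. In Han BB against Dorset these were IGFBP2 0.081, IGFBP4 0.13 and PAPPA 0.38 with limma, IGF1 0.044 and IGFBP2 0.12 without W4 and D6, and IGF1 0.014 with summed rows. In Han ++ against Dorset they were IGFBP5 -0.0012 with DESeq2, -0.10 with limma, -0.015 with no filter and -0.034 without W4 and D6, and IGF1 -0.30 with limma and -0.16 without W4 and D6. In Han BB against Han ++ they were IGF1 0.14, IGFBP2 0.19 and IGFBP3 0.056 with limma, and IGF1 0.20, IGFBP2 0.29 and IGFBP3 0.18 without W4 and D6. Of the shares, IGFBP2 on the logit scale gave -0.0054 and IGFBP3 without W4 and D6 gave 0.543 points in Han BB against Han ++, and IGFBP4 gave -1.49 points without W4 and D6 in Han BB against Dorset and 0.0753 on the logit scale in Han ++ against Dorset.

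With 1 library left out, log2 fold changes in Han BB against Dorset ran from -0.52 to 0.41 for IGF1, -0.69 to 0.24 for IGFBP2, -0.55 to 0.22 for IGFBP4, -0.64 to 0.043 for IGFBP5 and -1.32 to 0.59 for PAPPA. In Han ++ against Dorset they ran from -0.55 to 0.46 for IGF1, -0.57 to 0.17 for IGF2, -0.30 to 0.15 for IGFBP2, -0.60 to 0.17 for IGFBP4 and -0.29 to 0.38 for IGFBP5. In Han BB against Han ++ they ran from -0.57 to 0.53 for IGF1, -0.66 to 0.29 for IGFBP2, -0.54 to 0.18 for IGFBP3 and -0.22 to 0.42 for IGFBP4. Shares, in points, ran in Han BB against Dorset from -2.10 to 3.81 for IGFBP2, -3.90 to 7.15 for IGFBP4, -4.13 to 7.11 for IGFBP5 and -2.77 to 0.955 for IGFBP6. In Han ++ against Dorset they ran from -6.23 to 1.41 for IGF2 among the ligands, -1.29 to 3.17 for IGFBP2, -5.68 to 5.38 for IGFBP4 and -0.502 to 10.7 for IGFBP5. In Han BB against Han ++ they ran from -12.3 to 1.47 for IGF2 among the ligands, -3.48 to 2.82 for IGFBP2, -1.63 to 0.543 for IGFBP3, -0.347 to 4.19 for IGFBP4 and -8.33 to 0.0227 for IGFBP5.

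No paired analysis was possible because the replicate numbers were given in accession order and tie no ewes across groups. PAPP-A, with 14 to 118 reads per library, is the member whose depth limits its comparison most.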

Other observations

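The smaller of the IGFBP5 rows took 1.53% of the reads of the gene in D6 and 1.66% in W4, and 4.06 to 7.74% in the other 7 libraries. Over the 1037 symbols with 2 rows and at least 1000 reads, the median share of the smaller row was 0.0785% in D6 and 0.108% in W4. It was 0.140 to 0.726% in the other 7 libraries.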
